A study of Homo sapiens with 4 samples.

Results

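The E1 and E2 enzymes of ubiquitin and its relatives were followed in MDA-LM2 cells, a lung-metastatic derivative of MDA-MB-231, itself a human breast cancer line, after transfection with siRNA against TARBP2, a double-stranded RNA-binding partner of Dicer. The siTARBP2 group held 2 arrays, 1 for each of 2 independent siRNAs, and the siControl group held 2 arrays of cells given control siRNA, which the design text calls mock-transfected. Both groups were taken 48 hours after transfection. The set was fixed by name at 40 genes, and a gene's value was the mean over its sequence records (RefSeq transcript accessions), taken from the authors' deposited table of log fold changes of siTARBP2 over siControl. Of the 40 genes, 39 had a value, out of 19468 named genes. No record matched UBE2L3, which works with RING-between-RING ligases, so it was not analysed here. That table holds 1 value per record, with no error and no value per array. Its log base is unstated and is read here as log2, and neither the contrast behind it nor the weight of each siRNA in it is given. Exact matching to single probes did not recover it. The search compared its 1757 values past 0.5 in size with the log ratios of single probes, within 1e-06. Under 60 combinations of contrast, signal table and log base, at most 1.54% of them matched. Averages of probes and looser matches were not tried, so whether it can be rebuilt from the arrays was not settled. Its direction is taken from the column header, under which the targeted gene TARBP2 stood at -0.78. The array of siTARBP2 siRNA 1 stood apart from the other 3, with values given at the end. Values below are therefore descriptions without a test.

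Ubiquitin is attached to proteins in 3 steps. An E1 enzyme activates ubiquitin at the expense of ATP and passes it to the active-site cysteine of an E2, and an E3 ligase brings the loaded E2 to the substrate. The E2 often sets which lysine of ubiquitin is linked to the next, and so whether the product is a signal for the proteasome, for membrane traffic or for kinase activation. SUMO, NEDD8, ISG15 and UFM1 have E1 and E2 enzymes of their own.

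The promoters of the lowest gene (UBE2N), the lowest E1 (UBA6), the 2 highest genes (CDC34 and UBE2O) and the CDC34 paralog that lay on the opposite side (UBE2R2) are shown because these genes span the range of the set. All 5 have a single entry in the promoter table and were chosen after their values were seen. The sequences are RefSeq promoters of GRCh38.p14, 250 bases before to 50 after the annotated start, written 5′ to 3′ on the strand of the gene. Capitals mark 3 short motifs on either strand: the GC box GGGCGG, the ETS-type core CCGGAA and the NRF1-like CGCANGCG. In UBA6 a pair of GC boxes overlap.
UBE2N (chr12:93441898-93442197, minus strand): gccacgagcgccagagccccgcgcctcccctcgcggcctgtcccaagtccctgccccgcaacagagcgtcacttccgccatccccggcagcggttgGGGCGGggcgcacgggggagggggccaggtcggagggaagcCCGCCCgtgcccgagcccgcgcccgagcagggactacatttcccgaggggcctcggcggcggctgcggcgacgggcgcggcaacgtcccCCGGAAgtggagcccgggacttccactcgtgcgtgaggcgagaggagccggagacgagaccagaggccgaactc
UBA6 (chr4:67701106-67701405, minus strand): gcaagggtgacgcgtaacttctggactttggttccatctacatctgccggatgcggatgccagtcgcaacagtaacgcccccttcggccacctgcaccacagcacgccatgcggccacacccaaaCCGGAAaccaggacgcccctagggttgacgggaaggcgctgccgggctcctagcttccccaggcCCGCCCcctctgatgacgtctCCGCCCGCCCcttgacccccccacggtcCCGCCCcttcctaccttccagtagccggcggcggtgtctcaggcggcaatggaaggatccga
UBE2R2 (chr9:33816910-33817209, plus strand): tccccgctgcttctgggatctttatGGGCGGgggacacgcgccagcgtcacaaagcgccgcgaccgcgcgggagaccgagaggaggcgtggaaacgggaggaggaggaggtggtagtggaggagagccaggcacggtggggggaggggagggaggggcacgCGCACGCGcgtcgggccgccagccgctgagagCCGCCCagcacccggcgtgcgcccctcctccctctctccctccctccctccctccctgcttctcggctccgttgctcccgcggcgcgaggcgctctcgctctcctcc
CDC34 (chr19:531510-531809, plus strand): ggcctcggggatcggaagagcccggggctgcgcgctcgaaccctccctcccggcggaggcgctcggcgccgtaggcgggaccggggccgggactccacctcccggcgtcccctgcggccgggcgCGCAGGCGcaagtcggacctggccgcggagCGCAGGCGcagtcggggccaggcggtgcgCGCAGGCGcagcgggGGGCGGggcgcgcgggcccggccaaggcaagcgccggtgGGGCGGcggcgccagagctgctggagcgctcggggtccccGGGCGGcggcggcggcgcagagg
UBE2O (chr17:76453103-76453402, minus strand): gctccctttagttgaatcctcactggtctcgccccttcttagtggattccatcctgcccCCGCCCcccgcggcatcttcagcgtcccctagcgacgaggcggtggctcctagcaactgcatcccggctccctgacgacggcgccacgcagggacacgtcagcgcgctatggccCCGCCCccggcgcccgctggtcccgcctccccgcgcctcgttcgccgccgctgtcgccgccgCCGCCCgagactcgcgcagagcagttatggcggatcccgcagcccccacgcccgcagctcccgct

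More of these genes lay below the threshold than above it. The authors' class 1 begins at 0.2, and -0.2 was taken as its mirror. Of the 39 genes 11 (28.2%) lay below -0.2 per the authors' deposited table, against 12.1% of all named genes. Another 5 (12.8%) lay above 0.2, against 13.1% of all named genes. Together 41% were past 0.2 in either direction, against 25.2% of all named genes. The median of the 39 genes was -0.08 per the authors' deposited table, with 26 genes below 0 and 13 above, while the median of all named genes was 0.00. The table gives no signal levels, and the part of expression level in these shares was not tested.

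**Figure D1:**
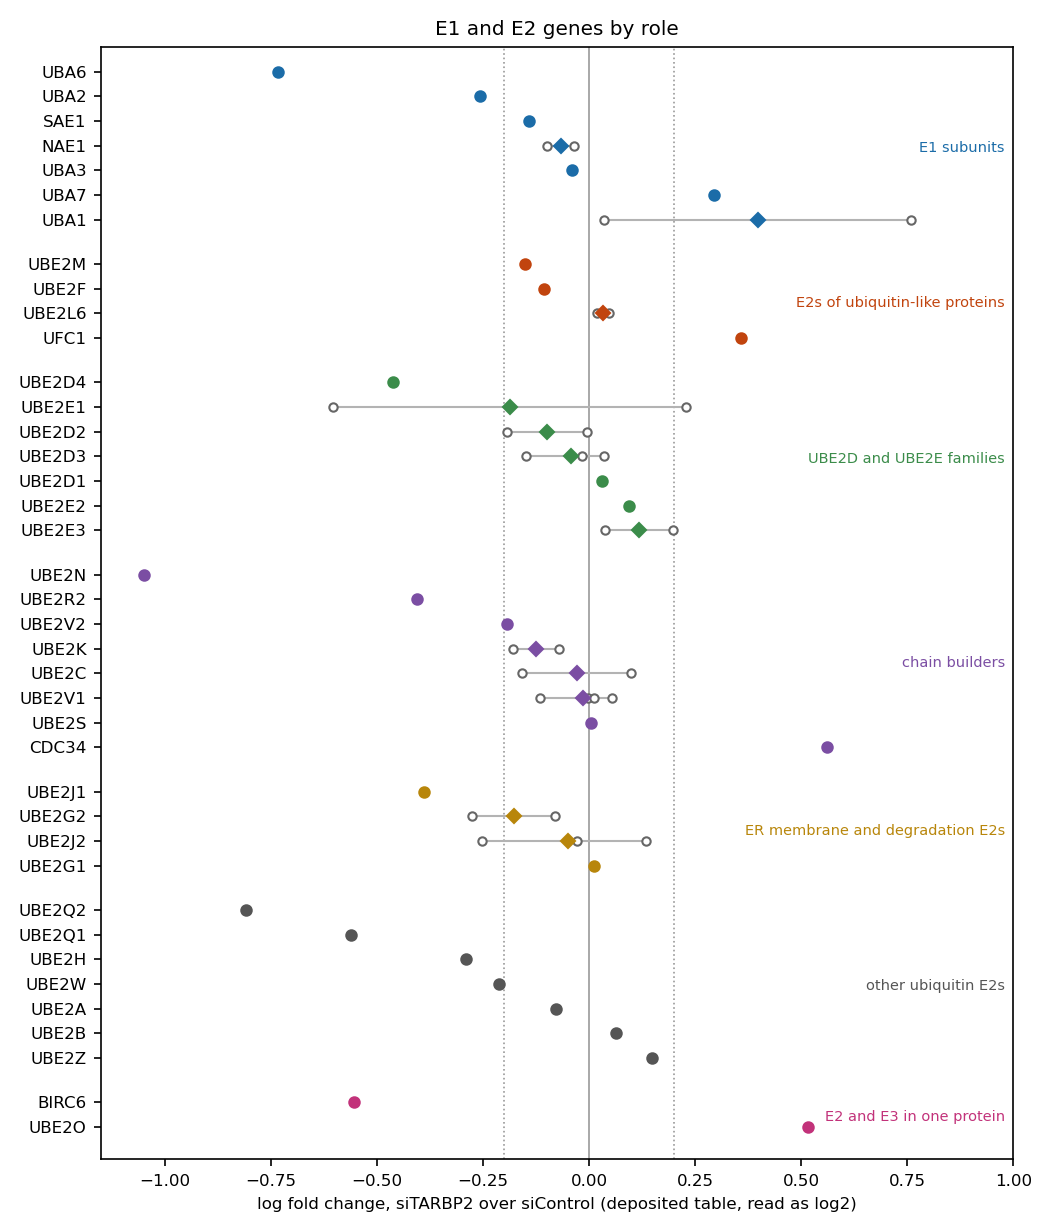
Log fold change of siTARBP2 over siControl (horizontal axis, read as log2) for the 39 E1 and E2 genes, grouped by role. Filled circles are genes with 1 record, diamonds are means over several records, and open circles are the records; dotted lines mark -0.2 and 0.2. UBE2N stands farthest to the left at -1.05 and CDC34 farthest to the right at 0.56.

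**Figure D2:**
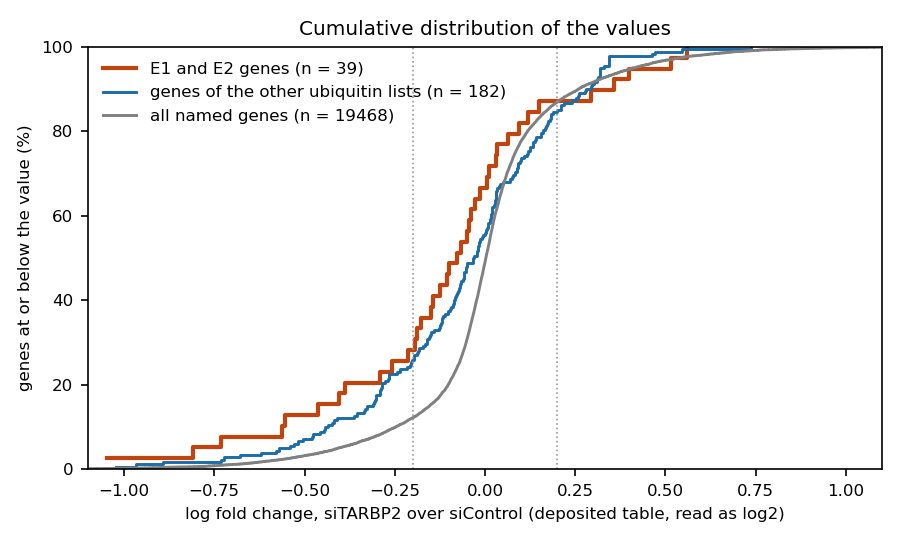
Cumulative share of genes (vertical axis, %) at or below each log fold change (horizontal axis, read as log2) for the 39 E1 and E2 genes, 182 genes of other ubiquitin-system lists and all 19468 named genes. At -0.2 the E1 and E2 genes have reached 28.2%, the genes of the other lists 25.8% and all named genes 12.1%.

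The E1 enzymes were divided, and the pair that activates ubiquitin itself lay on opposite sides of 0. UBA1, the main ubiquitin-activating enzyme, stood at 0.40 per the authors' deposited table. Its records NM_003334 and NM_153280 stood at 0.76 and 0.04 per the authors' deposited table, so only the first lay in class 1 and the gene mean rested on it. UBA6, the other E1 for ubiquitin and also the activator of the ubiquitin-like protein FAT10, stood at -0.73 per the authors' deposited table, with 171 named genes lower. The difference between UBA1 and UBA6 was 1.13. UBE2Z, the E2 that receives ubiquitin from UBA6 and not from UBA1, stood at 0.15, and UBD, the gene of FAT10, at -0.01 per the authors' deposited table.

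The E1 subunits of the other modifiers had smaller values. SUMO is activated by a dimer of SAE1 and UBA2, and these genes stood at -0.14 and -0.26 per the authors' deposited table. The modifier genes SUMO2 and SUMO3 stood at -0.11 and -0.12 per the authors' deposited table. The NEDD8 activator is a dimer of NAE1 and UBA3, which stood at -0.07 and -0.04 per the authors' deposited table. NEDD8 is then carried by UBE2M and UBE2F, which serve different cullins and stood at -0.15 and -0.11, with NEDD8 itself at -0.20 per the authors' deposited table. None of these 5 genes (NAE1, UBA3, UBE2M, UBE2F and NEDD8) passed 0.2 in either direction, though NEDD8 lay close to -0.2.

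ISG15 and UFM1 gave less even pictures. ISG15 is an interferon-induced modifier. Its E1 gene UBA7 stood at 0.29 and ISG15 itself at 0.32, both in class 1 of the authors' deposited table. The E2 of the same chain, UBE2L6, stood at 0.03 over records at 0.02 and 0.05, and the ligase gene HERC5 stood at -0.17 per the authors' deposited table. UFC1, the E2 of UFM1, stood at 0.36 per the authors' deposited table, whereas UFM1 stood at -0.73 and the UFM1-removing protease gene UFSP2 at -0.58. Of these 3 genes only UFC1 lay above 0. The modifiers, HERC5 and UFSP2 are named for their place in these chains, after their values were seen.

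UBE2N had the lowest value of the set. UBE2N encodes the E2 that builds the non-degradative ubiquitin chains used in NF-kB and DNA damage signalling. It stood at -1.05 per the authors' deposited table, a ratio of 0.484 if the scale is log2, and 24 named genes were lower. UBE2N works as a dimer with a catalytically inactive E2 variant, UBE2V1 or UBE2V2. UBE2V1 stood at -0.01 over 4 records that ran from -0.12 to 0.05 per the authors' deposited table. UBE2V2 stood at -0.19 in the same table, close to -0.2 but not past it. The value of UBE2N was 1.03 below that of UBE2V1 and 0.86 below that of UBE2V2, so enzyme and partner genes did not share a value. UBE2N rests on the single record NM_003348, and UBE2N has processed pseudogenes and a close relative, UBE2NL (-0.02), so its probe may not be specific to it.

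The paralogs CDC34 and UBE2R2 had opposite signs. Both serve SCF-type cullin-RING ligases, the ligases that send many cell cycle regulators to the proteasome. CDC34 had the highest value of the set, 0.56, with 440 named genes higher, and UBE2R2 stood at -0.41, with 972 lower, per the authors' deposited table. The difference was 0.97, each side resting on 1 record. UBE2K, which builds chains of the degradative type, stood at -0.13 over records at -0.18 and -0.07 per the authors' deposited table. UBE2C and UBE2S, the E2s that start and extend chains for the anaphase-promoting complex, stood at -0.03 and 0.01 per the authors' deposited table. The records of UBE2C lay on both sides of 0, at -0.16 and 0.10.

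The UBE2D and UBE2E genes encode E2s that work with many ligases. Of these 7 genes 6 lay within 0.2 of 0, counting UBE2E1 by its mean, against 14563 of the 19468 named genes. UBE2D1 stood at 0.03, UBE2D2 at -0.10 and UBE2D3 at -0.04 per the authors' deposited table. UBE2D4 alone of the 7 genes passed the threshold, at -0.46 on 1 record. The UBE2D proteins are nearly identical, and whether probes tell their transcripts apart was not tested. UBE2E2 stood at 0.09 and UBE2E3 at 0.12 per the authors' deposited table. The records of UBE2E1 were the most discordant of the set: NM_003341 stood at 0.23, inside class 1, and NM_182666 at -0.60, a range of 0.83, and their mean of -0.19 per the authors' deposited table describes neither.

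Of the 4 E2s of the endoplasmic reticulum and its degradation pathway, 3 lay below 0, against 9538 of the 19468 named genes. Only 1 of the 4 lay below -0.2. UBE2J1, anchored in the membrane of the endoplasmic reticulum, stood at -0.39 per the authors' deposited table. Its paralog UBE2J2 stood at -0.05 over 3 records between -0.25 and 0.13. UBE2G2, which works with the ligases of this pathway, stood at -0.18 over records at -0.28 and -0.08, and its relative UBE2G1 at 0.01 per the authors' deposited table.

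Both UBE2Q genes were among the lowest of the set. UBE2Q2 stood at -0.81, with 107 named genes lower, and UBE2Q1 at -0.56 per the authors' deposited table. These genes encode E2s with a long extension before the catalytic domain. UBE2H, the E2 of the CTLH ligase, stood at -0.29, and UBE2W, which modifies protein N-termini, at -0.21, just past -0.2, per the authors' deposited table. UBE2A and UBE2B, paralogs that act with RAD18 in DNA damage tolerance and with RNF20 on histone H2B, stood at -0.08 and 0.06 per the authors' deposited table. The 2 giant proteins that join E2 and E3 activity were far apart. BIRC6, an inhibitor of apoptosis and autophagy, stood at -0.55 and UBE2O at 0.51 per the authors' deposited table, a difference of 1.07. The genes nearest to the threshold without passing it were UBE2V2 and UBE2E1 below 0 and UBE2Z above 0. The nearest that passed it were UBE2W below 0 and UBA7 above 0.

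The genes past the threshold were nearly all genes with 1 record. All 11 genes below -0.2 and 4 of the 5 above 0.2 had a single record per the authors' deposited table. Among the 27 single-record genes 40.7% lay below -0.2, against 12.4% of all single-record genes, and 14.8% lay above 0.2, against 13.5%. Of the 12 genes with several records 1 passed, UBA1, and none of these 12 lay below -0.2, while 10.1% of all genes with several records did. The range between records had a median of 0.19 over these 12 genes and 0.13 over the 2500 such genes of the authors' deposited table. In 5 of the 12 genes the records differed in sign, against 1149 of the 2500 such genes. Among the 55 records taken singly, 14 (25.5%) lay below -0.2 and 6 (10.9%) above 0.2, against 8.37% and 9.11% of all 39745 records, named or not.

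Other genes of the ubiquitin system had shares close to those of the E1 and E2 genes. Over 182 genes of 7 other lists per the authors' deposited table, 47 (25.8%) lay below -0.2 and 28 (15.4%) above 0.2, with a median of -0.03. The shares of the E1 and E2 genes are therefore not particular to them by this description. Of the 12 E1-like and E2-like genes outside the set, 2 lay below -0.2 and 0 above 0.2, and none passed 0.5 in either direction. Of the 22 modifiers, 7 lay below and 4 above, with MAP1LC3B, an autophagy modifier, at -0.89 per the authors' deposited table beside UFM1. UBB and RPS27A, which encode ubiquitin and are named after their values were seen, stood at -0.44 and -0.46 per the authors' deposited table.

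The ligases and proteases were mixed as well. Of the 35 cullin genes, RING partners and NEDD8 co-factors, 7 lay below -0.2 and 4 above 0.2, with DCUN1D3, a NEDD8 co-ligase, at -0.54 per the authors' deposited table. Of the 39 HECT and RING-between-RING ligases, 10 lay below and 9 above, with WWP1 at -0.57 and NEDD4L at -0.53 the lowest. For the 17 genes of the anaphase-promoting complex and its regulators, the partners of UBE2C and UBE2S, the counts were 7 below and 3 above per the authors' deposited table. CDC26 stood at -0.97, the inhibitor gene FBXO5 at -0.72, ANAPC7 at -0.52 and ANAPC15 at 0.54. Of the 48 deubiquitinases and proteases of ubiquitin-like proteins, 13 lay below and 7 above per the authors' deposited table, led by STAMBPL1 at -1.02, UCHL5, a deubiquitinase of the proteasome, at -0.68 and JOSD1 at -0.62, with BAP1 at 0.74 the highest. Of the 9 SUMO ligases 1 lay on each side.

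**Figure D3:**
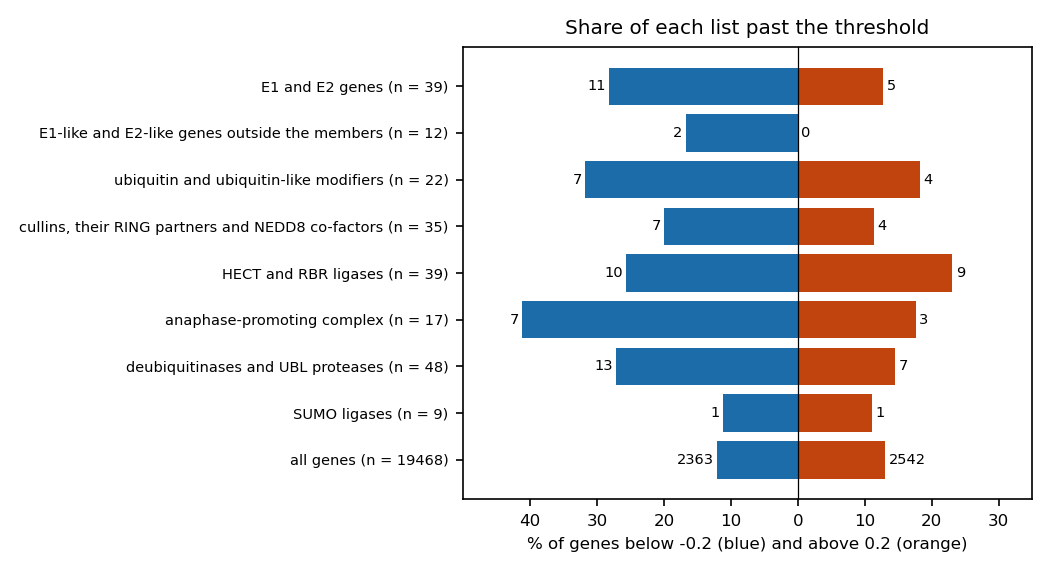
Share of genes (horizontal axis, %) below -0.2 (blue, to the left) and above 0.2 (orange, to the right) in the authors' deposited table for the E1 and E2 genes, 7 other ubiquitin-system lists and all named genes, with the number of genes beside each bar and the number measured in brackets. The blue bar of the E1 and E2 genes, 11 of 39, is shorter than that of the anaphase-promoting complex, 7 of 17, and longer than that of all genes.

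An entry in the promoter table was found for 30 of the 39 genes. For every motif a gene counted if any of its entries matched, whereas the 35116 promoters were counted singly. The share over all promoters is therefore not a like measure. The GC box was found in 25 of the 30 (83.3%), against 65.6% of the 14593 measured genes with an entry and 45% of all 35116 promoters. The ETS-type core was found in 12 (40%), against 27.4% and 17.2%. The NRF1-like motif was found in 12 (40%), against 17.2% and 10%. CCAAT was found in 8 (26.7%), against 42.6% and 34.6%, and TATAAA in 2 (6.67%), against 12.2% and 11.5%. The promoters of these genes were also richer in G and C, with a median of 70.8% against 62.7% for measured genes, and the first 3 motifs consist mainly of G and C.

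Genes with the NRF1-like motif or the ETS-type core lay on both sides of 0. The 12 genes with the NRF1-like motif held CDC34 (0.56), with 3 matches in the sequence shown, as well as UBE2R2 (-0.41), with 1, UBE2D4 (-0.46) and BIRC6 (-0.55) per the authors' deposited table. Their median was -0.06, against -0.09 for the genes without it. The ETS-type core was present in 5 of 8 genes below -0.2, among them UBE2N and UBA6 with 1 match each, in 1 of 3 above 0.2 and in 6 of 19 between. The GC box was present in 7 of 8 below, 2 of 3 above and 16 of 19 between. None of the 11 genes past the threshold in either direction that had an entry held CCAAT or TATAAA, against 8 and 2 of the 19 between, a difference that was not tested. The motifs were chosen with the counts in view, and a match of letters is a description only.

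TARBP2, the targeted gene, stood at -0.78 per the authors' deposited table, with records at -0.98 and -0.58. The arrays themselves set a limit on all these values. Their 47321 probes carry no gene names in the files used here, so no array value could be given for any of these genes. On each array 41% to 45.7% of probes were detected, the most on the array of siTARBP2 siRNA 1. Over the 21075 probes detected on at least 2 arrays, limma called 0 (0%) between siTARBP2 and siControl, with a smallest adjusted p of 0.805 and 815 probes at an unadjusted p under 0.05. The log2 differences between probes had an SD of 0.852 between the 2 siTARBP2 arrays and 0.250 between the 2 siControl arrays, and the array of siRNA 1 stood apart from all others. Its SD was 0.805 and 0.799 against the controls, while that of siRNA 2 was 0.384 and 0.395. With 1 array for each, siRNA and array cannot be told apart. Without the array of siRNA 1 limma called 4479 probes and without that of siRNA 2 it called 12035, counts that assume the lone siTARBP2 array to vary like the controls. Whether both siRNAs gave the E1 and E2 values described here was not tested.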

How the data were processed

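Total RNA was labelled with biotin and hybridised to Illumina expression BeadChips, per the labels' protocols. The log2 fold changes (log base assumed) of siTARBP2 over siControl were computed by the authors and used as deposited, with a class that is 1 above 0.2 and otherwise 0. The deposited intensity values per probe were raw in one table, with a detection p-value written as 1 minus p, per the file headers. In the other table the authors had quantile-normalized the intensity on a linear scale, as the shared quantiles show. The submitters' processing notes name lumi.

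Of 39745 records, 22411 (56.4%) were named by accession without version through RefSeq GRCh38.p14, and gene values are means over records. The text names every gene past 0.2, every E1 and the paralog families, and from the other lists up to 3 genes on each side past 0.5. The members, lists and thresholds were chosen with earlier results of these data known, and 1 entry that is no E2 relative (TMEM189) was dropped from a list after values were seen.

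Raw probe intensities were corrected and quantile-normalized with neqc (offset 16) in limma 3.58.1 (R 4.3.3). Probes detected at p under 0.05 on at least 2 arrays were fitted with lmFit and eBayes with trend (two-sided, Benjamini-Hochberg at 0.05). The fit was tested on simulated data with 200 changed probes, where all arrays had the spread of the control pair. The wider spread between the siTARBP2 arrays was not simulated, so that run does not show what the fit could detect here. The labels do not say whether the control arrays are separate cultures, so p-values measure the spread between these arrays, which may be technical, and the number of arrays limits the precision. The planned test of the E1 and E2 genes on probes was not run, since probes are unnamed. Some genes of these pathways are not reported here. Alternatives covered the summary over records, threshold, normalization, filter, trend, each array left out and a replicate block.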

Additional observations from a re-analysis of the deposited data

How the results depend on the processing

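In the authors' deposited table, with the median over records, or with curated records (NM or NR) alone, the counts of E1 and E2 genes below -0.2 and above 0.2, their median and the value of TARBP2 were the same as with the mean. All records of these genes and of TARBP2 are curated, so the curated setting could not change their values. A median can depart from a mean only for genes with 3 or more records, here UBE2D3, UBE2J2 and UBE2V1. Neither setting therefore tests how far the results depend on the summary. With the record of largest absolute value the counts were 14 below (13.2% of all named genes) and 5 above (14.4%) and the median was -0.15, while TARBP2 moved to -0.98. At a threshold of 0.1 there were 18 genes below (20.2% of all named genes) and 7 above (22.3%), and at 0.5 there were 5 below (3.18%) and 2 above (3.17%), as the threshold itself requires. No probe passed limma under the other normalizations, filters and trend setting tried. With the replicate block the count was 0 as well (smallest adjusted p 0.339), and same-numbered arrays deviated with a correlation of -0.04, so the numbers were not taken as pairs. Leaving out 1 array gave between 0 and 12035 probes: 4479 without siTARBP2 replicate 1, 12035 without siTARBP2 replicate 2 and 0 without either control, the lone siTARBP2 array being assumed to vary like the controls. The test of E1 and E2 genes on probes and its alternatives were not run, since probes carry no gene names here. Signal over background could not be read for any of these genes.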
